A study of Mus musculus with 8 samples.

Results

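RNA of mouse liver labelled as carrying inactivated Pr-Set7 was compared with RNA of untreated wild-type liver, gene by gene. The comparison used 6 of the 8 libraries of the series, chosen by their titles: 2 titled WT and 4 titled PR-SET7_LOBE. Both groups are labelled with the strain C57BL6/CBA and an age of 8 months, and no treatment is labelled for either. The genotype of the first group is labelled WT and that of the second PR-SET7_LX_ALB_CRE. ALB_CRE is the usual name of a Cre recombinase driven by the albumin promoter, which is active in hepatocytes. The series describes the inactivation as specific to hepatocytes, and which cells kept the gene was not tested. The labels do not explain the word LOBE. The remaining 2 libraries, from DEN-treated wild-type mice (DEN_WT), entered the count filter, the scaling and the shared estimate of the spread. They took no part in the comparison itself. Of the 37583 genes in the deposited table, 17362 passed the count filter and were tested.

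Pr-Set7, also called Setd8, is the enzyme that adds a single methyl group to lysine 20 of histone H4. This mark and the enzyme are needed for chromosome compaction, for orderly replication and for genome stability in dividing cells, and loss of the enzyme is known to activate DNA damage checkpoints. Hepatocytes rarely divide in the healthy adult liver, where they carry out nitrogen disposal, amino acid breakdown, lipid and bile acid metabolism, detoxification and the secretion of plasma proteins.

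Setd8 was examined first, as a check of the labels. Throughout, levels are CPM, that is, counts scaled to library size (TMM-scaled CPM). Setd8 (ENSMUSG00000049327) had 51.8 and 55.9 CPM in WT and 62.5, 57.3, 47.8 and 46.4 CPM in PR-SET7_LOBE, so that the groups overlapped. The log2 difference came to -0.01 (SE 0.32, adjusted p = 0.994). Which exons were removed is not stated and the counts cover the whole gene, so this level does not check the genotype, and every direction below belongs to libraries known by their label PR-SET7_LOBE.

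The 6 libraries held between 7305595 and 16108081 counts, at which 3 counts correspond to between 0.273 and 0.287 CPM. Genes with any count numbered 18037 and 20781 in WT and 18681, 22249, 26437 and 24812 in PR-SET7_LOBE. The TMM scaling factors were 0.761 and 0.675 in WT and 0.876, 1.04, 1.48 and 1.23 in PR-SET7_LOBE. Albumin, which defines hepatocytes, was at 23000 and 52900 CPM in WT and at 9661, 104600, 24610 and 70720 CPM in PR-SET7_LOBE. On the first principal component of the 6 libraries, which held 49.2% of the variance, PR-SET7_LOBE replicate 1 was at -59.9, against -79.5 and -79.1 in WT and 22.9, 100.3 and 95.3 in replicates 2, 3 and 4. On the second, which held 20.9%, replicate 1 was the extreme library at -83.4, against 13.6 and 74.6 in WT and -34.1, -6.56 and 35.9 in the other 3. Gene levels of replicate 1 also followed transcript GC content most closely (r = 0.607 across genes). This correlation was 0.297 and 0.194 in WT and -0.0453, -0.289 and -0.231 in PR-SET7_LOBE replicates 2, 3 and 4. Without replicate 1, the groups thus differed in its sign. The correlation with transcript length was 0.0796 and -0.161 in WT and 0.000704, -0.0338, 0.336 and 0.3 in PR-SET7_LOBE. Counts and medians from a fit without replicate 1 stand beside most of the gene lists below. Replicate 1 was singled out in these same data as the PR-SET7_LOBE library nearest to WT on the first component. Leaving it out is therefore a choice that favours more calls, and some other omissions given below left fewer. All lists and their members were chosen with earlier results of these data known, so their counts and medians are description only. The labels number the samples of a group but name no animals, and the p-values therefore reflect the spread among these samples, possibly a technical one.

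At an adjusted p under 0.05 in edgeR's quasi-likelihood test with Benjamini-Hochberg adjustment, 43 genes changed, 0.248% of those tested. Of these, 26 rose (0.15%) and 17 fell (0.0979%), so that 60.5% of the calls were higher. With upper-quartile scaling 47 rose and 19 fell, which made 71.2% of the calls higher. In all 43 the groups did not overlap. Over all tested genes, 2012 lay above both WT libraries in all 4 PR-SET7_LOBE libraries (11.6%) and 1828 lay below both (10.5%). The median log2 fold change was 0.107, or 0.291 with upper-quartile scaling and 0.524 with no count filter. The lists below are to be read beside these shares of all tested genes, 11.6% above and 10.5% below. They are not set beside genes of like level. Without PR-SET7_LOBE replicate 1, 1270 genes rose (7.41%) and 1122 fell (6.54%), and all 43 calls were kept. Leaving out replicate 2, 3 or 4 of PR-SET7_LOBE gave 15, 28 and 99 calls, of which 14, 25 and 43 were among the 43. A fit on the 2 groups only, without DEN_WT, gave 19 calls, all among the 43. Without WT replicate 1 the call count was 8, and without WT replicate 2 it was 1, with the lone WT library then assumed to vary like the other groups. Before adjustment (p under 0.05), 1931 genes were higher (11.1%) and 1056 lower (6.08%), and for lists with 0 called genes the counts at that unadjusted p and in DESeq2 (adjusted p under 0.05) are given below.

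**Figure D1:**
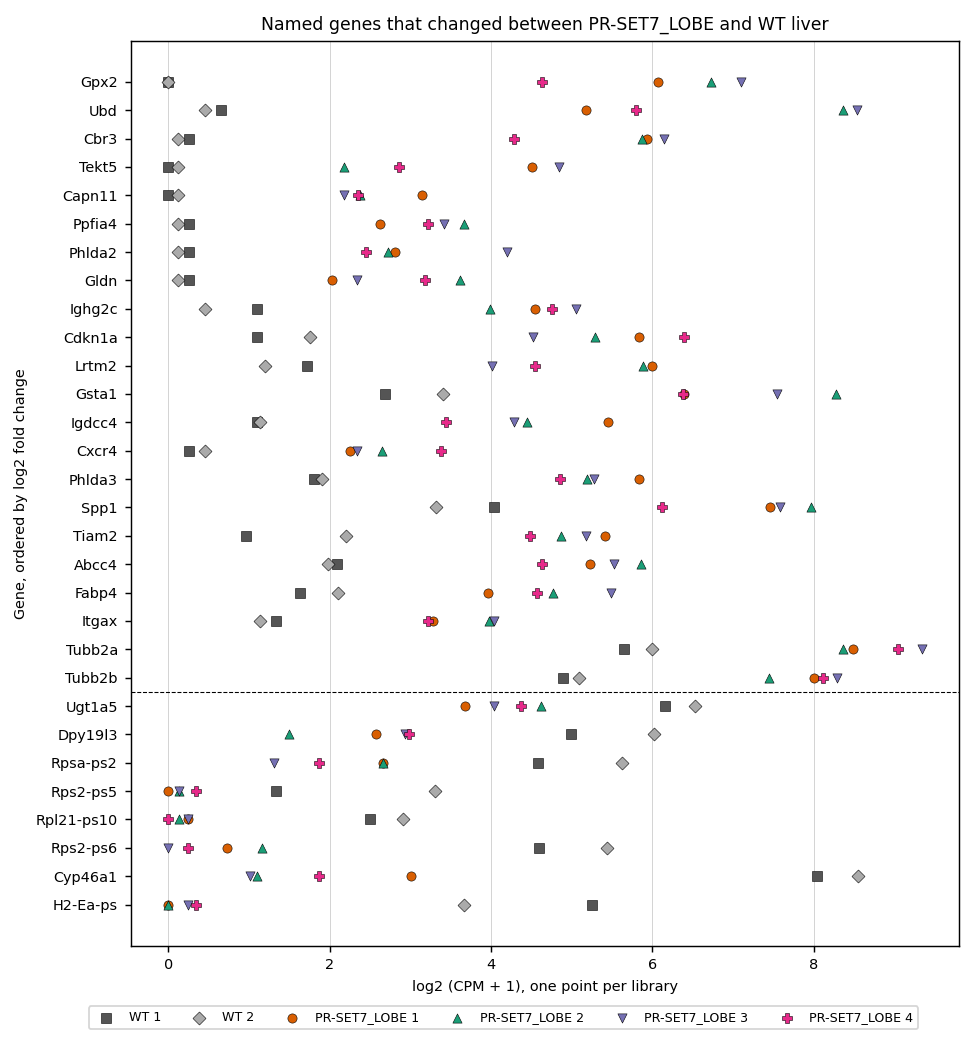
Levels of 30 changed genes that have a gene symbol, as log2 (CPM + 1) on the horizontal axis with 1 point per library, ordered by log2 fold change; squares and diamonds are the 2 WT libraries, the other symbols the 4 PR-SET7_LOBE libraries, and the dashed line separates the 8 that fell (below) from the 22 that rose. In every gene the 4 PR-SET7_LOBE points lie on 1 side of both WT points, and 21 of the 26 genes that rose were under 5 CPM in both WT libraries.

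Detoxification genes led the genes that rose. NRF2 is a transcription factor that induces glutathione and quinone-reducing enzymes after oxidative or electrophilic stress, through antioxidant response elements in its target genes. Of 37 tested NRF2 targets and glutathione enzymes, 4 rose, 0 fell and 33 did not pass, 17 lay above WT without overlap, and the median log2 fold change was 0.79. Without replicate 1, 14 of the 37 rose and 1 fell.

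Gpx2, a glutathione peroxidase of epithelia (ENSMUSG00000042808, mm9 chromosome 12, 77893322 to 77896541), had 0 counts in both WT libraries. It was at 66.0, 104.8, 136.2 and 23.8 CPM in PR-SET7_LOBE, where each library was far above the detection floor. The rise was at least 585-fold, computed against 3 counts over the WT group (adjusted p = 0.0298). Gpx2 overlaps Fntb on the opposite strand, and the strand setting of the counting is not given in the sources used here. Cbr3, a carbonyl reductase (mm9 chromosome 16, 93683460 to 93691235), was at 0.191 and 0.0920 CPM in WT and at 60.1, 57.5, 69.6 and 18.5 CPM in PR-SET7_LOBE. Replicate 4 was the low one of the group and still far above WT. From 3 counts in WT the ratio was 364, and counting error at the 95% level allows 124 to 1770 (adjusted p = 0.00608).

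Abcc4, an exporter of bile acids and organic anions on the blood side of hepatocytes (ENSMUSG00000032849, mm9 chromosome 14, 118881914 to 119105441), was at 3.25 and 2.95 CPM in WT and at 36.6, 56.9, 45.1 and 23.7 CPM in PR-SET7_LOBE. The lowest of the 4 was above both WT libraries by a wide margin, and the log2 fold change was 3.71 (SE 0.48, adjusted p = 0.0137). Gsta1, a glutathione transferase (mm9 chromosome 9, 78078463 to 78090491), was at 5.45 and 9.57 CPM in WT and at 83.2, 309.5, 185.1 and 82.4 CPM in PR-SET7_LOBE, so its log2 fold change reached 4.46 (SE 0.70, adjusted p = 0.0331). Its transcript is 97.2% identical to that of Gsta2 and 99.5% identical to that of Gm3776, an unnamed gene that rose as well and is named here after its values were seen, so reads could be split between these copies. Gsta2 was at 10.03 and 15.9 CPM in WT and at 56.0, 245.2, 88.1 and 54.5 CPM in PR-SET7_LOBE, without overlap (adjusted p = 0.0992).

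Other members were higher without passing the test. Nqo1, the quinone reductase often used to read NRF2 activity, was at 4.40 and 2.39 CPM in WT and at 16.3, 61.9, 62.3 and 20.2 CPM in PR-SET7_LOBE (log2 fold change 3.56, SE 0.70, adjusted p = 0.0729). Slc7a11, the cystine importer, was at 8.503 and 19.5 CPM in WT and at 29.7, 38.5, 165.4 and 49.3 CPM in PR-SET7_LOBE (adjusted p = 0.179). In both genes the groups did not overlap. The list was also uneven: of its tested members, 1 lay below WT without overlap and 19 overlapped.

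The promoters of this list were searched for the core of the antioxidant response element, TGACNNNGC, on both strands of windows from 250 bases before to 50 bases after RefSeq start sites (GRCm38.p6). The letters were found in 10 of the 32 tested members with a window (31.2%) and in 3781 of 27025 genes in the table (14%). Among members whose groups did not overlap with PR-SET7_LOBE higher, 5 of 16 held them, and among the other members 5 of 16 did, so the match did not separate the higher members from the rest. The windows of Abcc4, which rose, at its 2 start sites (chr14:118676882-118677181 and chr14:118706170-118706469, both minus strand), of Txnrd1, a thioredoxin reductase (chr10:82858956-82859255, plus strand), and of Ugdh, which makes the substrate of glucuronidation (chr5:65435793-65436092, minus strand), are shown 5′ to 3′ because each holds the letters before the start site in a gene that was higher in all 4 PR-SET7_LOBE libraries. Capitals mark the match, read on the given strand or its complement, and none of these matches overlaps an AP-1 site (TGACTCA or TGAGTCA).
Abcc4 first window: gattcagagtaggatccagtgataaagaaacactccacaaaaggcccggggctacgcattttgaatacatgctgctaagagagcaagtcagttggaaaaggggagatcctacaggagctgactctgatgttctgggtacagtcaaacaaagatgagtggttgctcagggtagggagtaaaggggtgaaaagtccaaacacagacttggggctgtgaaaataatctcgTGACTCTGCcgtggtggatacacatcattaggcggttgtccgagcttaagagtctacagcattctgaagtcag
Abcc4 second window: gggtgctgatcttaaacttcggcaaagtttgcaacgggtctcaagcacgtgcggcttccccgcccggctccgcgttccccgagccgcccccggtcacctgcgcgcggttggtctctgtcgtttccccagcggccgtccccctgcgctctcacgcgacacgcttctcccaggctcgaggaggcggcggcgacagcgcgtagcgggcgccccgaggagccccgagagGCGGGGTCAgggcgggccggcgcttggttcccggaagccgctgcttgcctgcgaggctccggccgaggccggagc
Txnrd1: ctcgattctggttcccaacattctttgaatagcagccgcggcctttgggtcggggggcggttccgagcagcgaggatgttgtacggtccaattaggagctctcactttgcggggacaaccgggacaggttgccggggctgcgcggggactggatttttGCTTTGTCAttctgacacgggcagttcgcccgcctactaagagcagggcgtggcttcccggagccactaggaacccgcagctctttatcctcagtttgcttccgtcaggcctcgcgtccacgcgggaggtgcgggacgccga
Ugdh: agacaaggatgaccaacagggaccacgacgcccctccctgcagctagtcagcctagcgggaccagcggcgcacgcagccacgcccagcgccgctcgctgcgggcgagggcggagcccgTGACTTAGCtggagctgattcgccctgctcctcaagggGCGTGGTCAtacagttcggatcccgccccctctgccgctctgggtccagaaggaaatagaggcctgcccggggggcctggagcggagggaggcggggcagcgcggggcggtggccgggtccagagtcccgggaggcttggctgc

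The p53 pathway was represented among the changed genes by 2 of its targets. Cdkn1a, the cyclin-dependent kinase inhibitor p21 that halts the cell cycle after DNA damage (mm9 chromosome 17, 29227924 to 29237667), was at 1.15 and 2.39 CPM in WT and at 56.0, 38.2, 21.9 and 82.9 CPM in PR-SET7_LOBE. All 4 libraries were well above WT, and the log2 fold change was 4.80 (SE 0.69, adjusted p = 0.0248). Phlda3, a p53-induced inhibitor of AKT (mm9 chromosome 1, 137662696 to 137665713), was at 2.48 and 2.76 CPM in WT and at 55.9, 35.5, 37.7 and 27.8 CPM in PR-SET7_LOBE. The 4 values lay close together, and the log2 fold change was 3.90 (SE 0.47, adjusted p = 0.0109). Of 29 tested p53 targets, 2 rose, 0 fell and 27 did not pass, and the median log2 fold change was 0.59. Without overlap, 8 lay above WT (27.6%) and 2 below (6.9%), against 11.6% and 10.5% of all tested genes. Without replicate 1, 6 rose and 2 fell, among them Eda2r (adjusted p = 0.0198) and Perp (adjusted p = 0.0209).

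Among further p53 targets, Eda2r and Gdf15 were higher and Perp was lower. Eda2r, a death-domain receptor, was at 0.191 and 0.276 CPM in WT and at 0.469, 3.06, 2.87 and 6.09 CPM in PR-SET7_LOBE (adjusted p = 0.155). Gdf15, a stress-induced cytokine, was at 10.6 and 3.96 CPM in WT and at 54.7, 20.4, 15.4 and 19.3 CPM in PR-SET7_LOBE (adjusted p = 0.188). Perp, an epithelial p53 target, was lower, at 66.2 and 77.1 CPM in WT against 30.4, 16.9, 29.4 and 24.3 CPM (adjusted p = 0.0964). None of the 3 passed the test with all libraries, and in each the groups did not overlap.

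Cell cycle genes lay higher alongside this inhibitor. Of 33 tested genes of G2 and mitosis, 0 rose or fell and 22 lay above WT without overlap, with a median log2 fold change of 1.82; without replicate 1, 12 rose and 0 fell. At an unadjusted p under 0.05, 19 were higher and 1 lower, and DESeq2 called 13 higher. Ccnb1, the mitotic cyclin, had 0 counts in WT and was at 1.22, 1.62, 4.17 and 2.27 CPM in PR-SET7_LOBE. Against 3 counts in WT this is at least 16.6-fold higher (adjusted p = 0.0599). Mki67, the proliferation marker, was at 1.34 and 0.644 CPM in WT and at 3.47, 7.45, 24.3 and 10.1 CPM in PR-SET7_LOBE (log2 fold change 3.50, SE 0.85, adjusted p = 0.117). Replicate 3 was the high one for both genes, and the groups did not overlap.

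Of 31 replication licensing and fork genes, 0 rose or fell and 11 lay above WT without overlap, with a median of 0.78. Before adjustment (p under 0.05), 9 were higher and 2 lower, and DESeq2 called 3 higher and 1 lower; without replicate 1, 4 rose and 1 fell. Among them Mcm6, a subunit of the replicative helicase, was at 2.48 and 3.04 CPM in WT and at 3.56, 13.7, 32.7 and 9.64 CPM in PR-SET7_LOBE (adjusted p = 0.189). Tk1, thymidine kinase, lay the other way, at 56.9 and 61.8 CPM in WT against 30.6, 20.2, 14.9 and 15.6 CPM (adjusted p = 0.103). Ccnd1, the G1 cyclin, was at 23.2 and 15.8 CPM in WT and at 148.8, 165.7, 62.7 and 74.9 CPM in PR-SET7_LOBE (log2 fold change 2.53, SE 0.52, adjusted p = 0.0834). For each of these 3 genes the groups did not overlap.

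For the DNA damage checkpoint and recombination repair list, the position of replicate 1 mattered. Of 28 tested members, 0 rose or fell and 8 lay above WT without overlap, with a median log2 fold change of 1.57. Without replicate 1, 8 rose and the median was 1.83. With a correction for GC content the median was 1.08. At an unadjusted p under 0.05, 10 were higher and 0 lower, and DESeq2 called 3 higher. Atm, the kinase that responds to double-strand breaks, was at 1.72 and 2.03 CPM in WT, at 1.22 CPM in replicate 1 and at 4.01, 12.1 and 8.91 CPM in the others (adjusted p = 0.281). Atr, its partner at stalled forks, was at 2.29 and 1.56 CPM in WT, at 1.03 CPM in replicate 1 and at 6.02, 9.82 and 9.19 CPM in the others (adjusted p = 0.278). For both kinases replicate 1 lay below WT and the other 3 above it.

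The paired beta-tubulin genes Tubb2a and Tubb2b rose together. Tubb2a (mm9 chromosome 13, 34166170 to 34169877) was at 49.2 and 62.8 CPM in WT and at 357.2, 328.7, 646.1 and 527.8 CPM in PR-SET7_LOBE (log2 fold change 3.05, SE 0.49, adjusted p = 0.0331). Tubb2b (mm9 chromosome 13, 34218877 to 34222223) was at 28.8 and 33.2 CPM in WT and at 255.9, 173.6, 312.8 and 277.0 CPM in PR-SET7_LOBE (log2 fold change 3.04, SE 0.44, adjusted p = 0.0248). The 4 values of each were close and far from WT. Their transcripts are 96.4% identical over 83.9% of Tubb2a, so reads could be split between them. Of 22 tested tubulins, stathmins and microtubule motors, these 2 rose, 0 fell, and 11 lay above WT without overlap, with a median of 1.19; without replicate 1, 7 rose and 1 fell. Stmn1, which destabilises microtubules, was at 3.63 and 3.68 CPM in WT and at 17.2, 12.3, 19.1 and 12.3 CPM in PR-SET7_LOBE (adjusted p = 0.0836).

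Tekt5, a tektin of the sperm flagellum, was at 0 and 0.0920 CPM in WT and at 21.8, 3.53, 27.7 and 6.28 CPM in PR-SET7_LOBE, with replicates 1 and 3 high. From 1 count in WT its ratio was 317, and counting error allows 56.7 to 12500 (adjusted p = 0.0411). Capn11, a calpain protease of the testis, was at 0 and 0.0920 CPM in WT and at 7.88, 4.202, 3.52 and 4.09 CPM in PR-SET7_LOBE, a ratio of 105 (18.6 to 4160, adjusted p = 0.0331).

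Among 31 tested neuronal and synaptic genes, 3 rose, 0 fell, and 13 lay above WT without overlap, with a median of 1.39. Without replicate 1, 6 rose. The changed genes that follow are not all members of this list, which was chosen with earlier results known. Ppfia4, a liprin scaffold of presynaptic sites, was at 0.191 and 0.0920 CPM in WT and at 5.16, 11.7, 9.73 and 8.28 CPM in PR-SET7_LOBE, a ratio of 61.8 (21 to 301, adjusted p = 0.0114). Gldn, gliomedin of the node of Ranvier, had 0.191 and 0.0920 CPM in WT and 3.09, 11.3, 4.08 and 8.09 CPM in PR-SET7_LOBE (ratio 47.0, 15.9 to 230.0, adjusted p = 0.0331). It overlaps an unnamed gene on the opposite strand. Lrtm2, a leucine-rich repeat protein, was at 2.29 and 1.29 CPM in WT and at 62.5, 58.1, 15.1 and 22.4 CPM in PR-SET7_LOBE (log2 fold change 4.46, SE 0.73, adjusted p = 0.0373). Replicates 1 and 2 were the high ones for Lrtm2, which overlaps Cacna2d4 on the opposite strand. Tiam2, an activator of the GTPase Rac, was at 0.955 and 3.59 CPM in WT and at 41.7, 28.3, 35.3 and 21.4 CPM in PR-SET7_LOBE (log2 fold change 3.79, SE 0.61, adjusted p = 0.0331), without overlap between the groups. It overlaps Tfb1m on the opposite strand.

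A few genes known from macrophages, lymphocytes and inflammation rose as well. In bulk tissue, more cells of a type and more RNA per cell cannot be told apart. Itgax, the integrin CD11c of dendritic cells and recruited macrophages (mm9 chromosome 7, 135273061 to 135294171), was at 1.53 and 1.20 CPM in WT and at 8.72, 14.7, 15.5 and 8.28 CPM in PR-SET7_LOBE (log2 fold change 3.10, SE 0.53, adjusted p = 0.0411). Spp1, the secreted matrix protein osteopontin (mm9 chromosome 5, 104864137 to 104870069), was at 15.5 and 9.02 CPM in WT and at 175.4, 248.6, 190.4 and 68.7 CPM in PR-SET7_LOBE (log2 fold change 3.80, SE 0.64, adjusted p = 0.0411). Both genes were far above WT in all 4 libraries, and both are on the list of lipid-associated and recruited macrophages, of whose 20 tested members they were the 2 that rose. On that list 0 fell, 11 lay above WT without overlap, the median log2 fold change was 2.36, and 11 rose without replicate 1.

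The summed CPM of those 20 macrophage genes was 388 and 573 in WT and between 600 and 1876 in PR-SET7_LOBE. Gpnmb, a glycoprotein of lipid-laden macrophages, was at 0.382 and 1.20 CPM in WT and at 39.5, 8.40, 57.0 and 18.2 CPM in PR-SET7_LOBE (adjusted p = 0.0601). Lpl, lipoprotein lipase, was at 19.3 and 5.06 CPM in WT and at 46.2, 360.4, 150.7 and 93.9 CPM in PR-SET7_LOBE (adjusted p = 0.114). Both lay above WT without overlap. Resident Kupffer cell markers did not share this pattern: of 19, 0 rose or fell, 2 lay above and 2 below WT without overlap, and the median was 0.29. Before adjustment (p under 0.05), 3 were higher and 1 lower, and DESeq2 called 1 higher; without replicate 1, 1 rose, 1 fell and the median was 0.04. Clec4f, which defines Kupffer cells, was at 470.5 and 139.1 CPM in WT and at 186.9, 127.7, 210.8 and 136.0 CPM in PR-SET7_LOBE, with overlap.

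Fabp4, a fatty acid carrier of adipocytes and macrophages, was at 2.10 and 3.31 CPM in WT and at 14.6, 26.2, 43.7 and 22.8 CPM in PR-SET7_LOBE (log2 fold change 3.30, SE 0.57, adjusted p = 0.0460). The groups did not overlap. Adipoq, which defines adipocytes, had 0 and 1 counts in WT and 0, 0, 2 and 29 counts in PR-SET7_LOBE. Of 10 tested adipocyte and muscle markers, Fabp4 was the 1 that rose, and without replicate 1 the count was 2. The summed level of the 10 was 1913 and 2726 CPM in WT and between 493 and 2195 CPM in PR-SET7_LOBE. In WT Cidec was at 3.25 and 6.07 CPM and Pparg at 4.40 and 5.06 CPM. Most of the sum thus came from members other than these and Fabp4, and it was not taken as a measure of adipocyte RNA. In replicate 4 the pancreatic markers Prss2 and Cpa1 had 32 and 24 counts, against 0 in WT, and the part of such tissue in the results was not tested.

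Among chemokine genes, 1 receptor rose. Cxcr4, the receptor for CXCL12 on leukocytes and other cells (mm9 chromosome 1, 130484776 to 130488870), was at 0.191 and 0.368 CPM in WT and at 3.75, 5.25, 4.08 and 9.46 CPM in PR-SET7_LOBE (log2 fold change 4.27, SE 0.72, adjusted p = 0.0411). Of 29 tested chemokines and receptors it was the 1 that rose, 0 fell, 17 lay above WT and 2 below without overlap, and the median was 2.06; without replicate 1, 7 rose and 1 fell. Ccl2, which recruits monocytes, was at 1.15 and 0.276 CPM in WT and at 7.88, 13.5, 12.6 and 2.91 CPM in PR-SET7_LOBE (adjusted p = 0.0975). Cx3cl1, a membrane-bound chemokine, was at 1.34 and 1.47 CPM in WT and at 14.4, 17.8, 19.1 and 3.55 CPM in PR-SET7_LOBE (adjusted p = 0.0919). In both, replicate 4 was nearest to WT, without overlap.

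Ubd, a ubiquitin-like modifier induced by TNF and interferon-gamma (mm9 chromosome 17, 37330837 to 37333040), was at 0.573 and 0.368 CPM in WT and at 35.1, 328.5, 369.1 and 54.5 CPM in PR-SET7_LOBE. Replicates 2 and 3 were several-fold above replicates 1 and 4, and all 4 were above WT (log2 fold change 8.68, SE 1.35, adjusted p = 0.0331). Of 29 tested TNF and NF-kappaB genes Ubd was the 1 that rose, 0 fell and 10 lay above WT without overlap, with a median of 0.88; without replicate 1, 5 rose. Of 36 tested interferon-stimulated genes 0 rose or fell and 9 lay above WT without overlap (25%, against 11.6% of all tested genes). The median was 0.96, or 0.701 with a correction for GC content, and without replicate 1, 10 rose. Their mean log2 CPM, relative to the WT mean, was 0.406 and -0.406 in WT. In PR-SET7_LOBE it was 0.243, 1.05, 1.71 and 0.796, so replicate 1 lay within the WT range. At an unadjusted p under 0.05, 11 of the 36 were higher and 1 lower, and DESeq2 called 7 higher. Ifit1, an interferon-induced RNA-binding protein, was at 3.44 and 1.84 CPM in WT and at 11.3, 15.8, 96.8 and 21.1 CPM in PR-SET7_LOBE (adjusted p = 0.123). Casp1, the inflammasome protease, was at 0.764 and 0.552 CPM in WT, at 1.5 CPM in replicate 1 and at 24.1, 29.2 and 7.91 CPM in the others (adjusted p = 0.118).

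Ighg2c, an immunoglobulin heavy chain constant segment, falls outside the rule for named genes and was chosen after its values were seen. It was at 1.15 and 0.368 CPM in WT and at 22.3, 14.9, 32.3 and 26.01 CPM in PR-SET7_LOBE, with the 4 close together and no overlap (log2 fold change 4.96, SE 0.62, adjusted p = 0.0114). Igj, the joining chain of plasma cells, was at 0.764 and 2.49 CPM in WT and at 3.94, 13.2, 28.5 and 8.91 CPM in PR-SET7_LOBE (adjusted p = 0.145). Of 19 tested B and plasma cell markers 0 rose or fell, 7 lay above WT and 1 below without overlap (6 higher at an unadjusted p under 0.05, 2 in DESeq2; without replicate 1, 2 rose and 1 fell), and their summed level was 850 and 1508 CPM in WT and between 547 and 1165 CPM in PR-SET7_LOBE. Of 28 T and NK cell markers 0 rose or fell, 14 lay above WT and 1 below (7 higher at an unadjusted p under 0.05, 1 in DESeq2; without replicate 1, 2 rose and 1 fell), with summed levels of 41.1 and 61.5 CPM in WT and between 60.7 and 89.0 CPM in PR-SET7_LOBE.

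Of 38 tested fetal and liver tumour genes 2 rose, 0 fell and 22 lay above WT without overlap, with a median log2 fold change of 2.84; without replicate 1, 18 rose. Like the others, this list was put together with earlier results of these data known, and 1 of the 2, Cbr3, is also on the NRF2 list. The other, Igdcc4, an immunoglobulin superfamily receptor (mm9 chromosome 9, 64949293 to 64985747), was at 1.15 and 1.20 CPM in WT and at 42.8, 20.8, 18.5 and 9.91 CPM in PR-SET7_LOBE (log2 fold change 4.28, SE 0.65, adjusted p = 0.0331). Gpc3, a glypican used as a marker of hepatocellular carcinoma, was at 1.15 and 2.49 CPM in WT and at 9.09, 9.55, 6.86 and 18.5 CPM in PR-SET7_LOBE (adjusted p = 0.0853). Golm1, a Golgi membrane protein, was at 2.48 and 1.56 CPM in WT and at 15.5, 24.2, 55.2 and 13 CPM in PR-SET7_LOBE (adjusted p = 0.0601). All of these lay above WT without overlap.

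Of 24 imprinted growth genes 1 rose, 0 fell and 14 lay above WT without overlap. The median of these 24 was 2.29, or 2.04 with genes at 0 counts in a group set to their bounds, and without replicate 1, 8 rose. Phlda2, a placental growth regulator expressed from the maternal allele, was at 0.191 and 0.0920 CPM in WT and at 6, 5.63, 17.4 and 4.46 CPM in PR-SET7_LOBE, a ratio of 59.6 (20.2 to 291, adjusted p = 0.0351). Peg3, a paternally expressed zinc finger gene, was at 3.82 and 1.20 CPM in WT and at 10.3, 8.69, 18.8 and 15.6 CPM in PR-SET7_LOBE (adjusted p = 0.101). Neither overlapped between the groups.

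Of 30 cholangiocyte and progenitor genes 1, Spp1, rose, 0 fell, 16 lay above WT and 1 below without overlap, with a median of 1.71; without replicate 1, 11 rose. Sox9, a transcription factor of duct cells and progenitors, was at 7.55 and 3.50 CPM in WT and at 48.7, 17.8, 30.9 and 20.9 CPM in PR-SET7_LOBE (log2 fold change 2.42, SE 0.54, adjusted p = 0.0954). Cdh1, the epithelial cadherin, was at 6.21 and 9.94 CPM in WT and at 68.2, 32.3, 89.1 and 45.4 CPM in PR-SET7_LOBE (log2 fold change 2.86, SE 0.52, adjusted p = 0.0601). Krt19, a keratin that defines cholangiocytes, was at 3.06 and 2.03 CPM in WT and at 5.16, 0.955, 1.85 and 1.82 CPM in PR-SET7_LOBE. Sox9 and Cdh1 were higher in all 4 libraries, whereas the groups overlapped for Krt19. The summed level of the 30 was 305 and 337 CPM in WT and between 374 and 612 CPM in PR-SET7_LOBE.

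**Figure D2:**
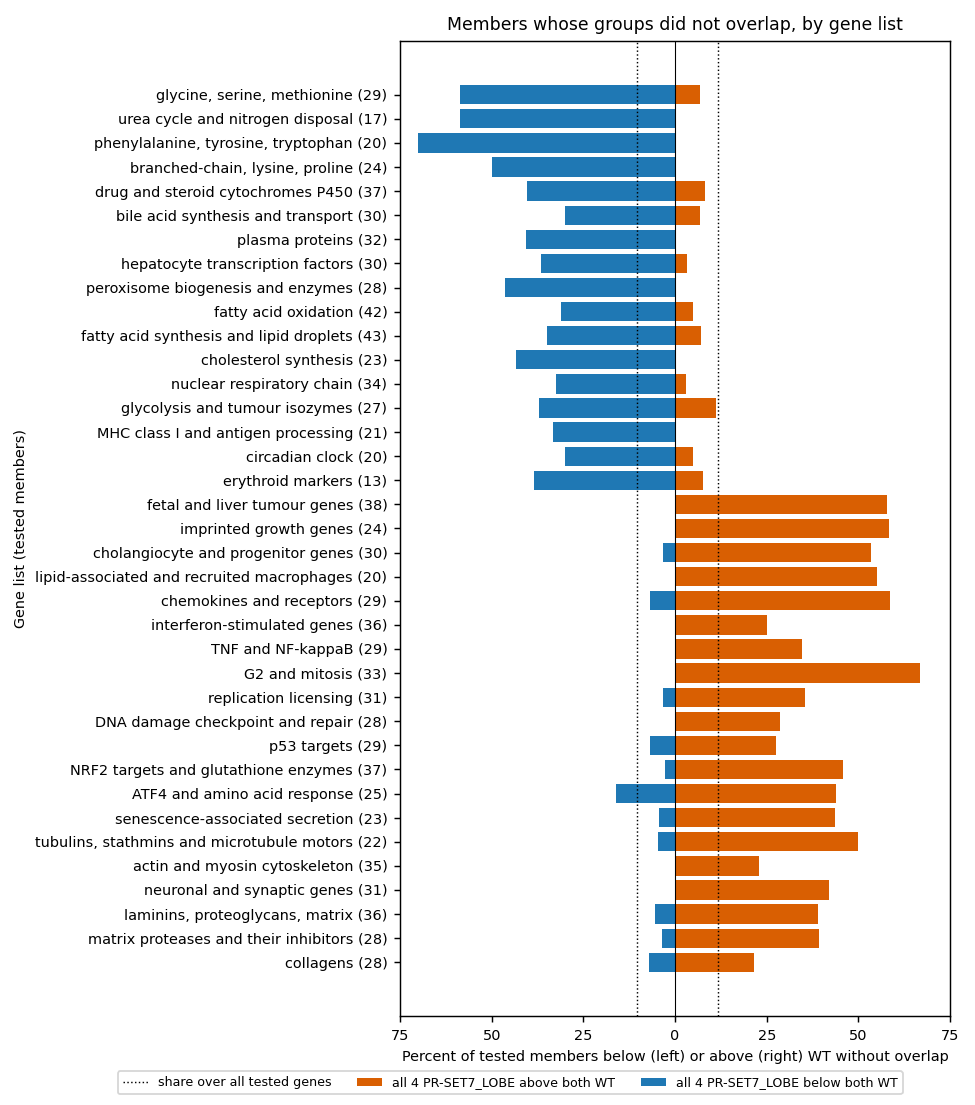
Share of the tested members of 37 gene lists whose 4 PR-SET7_LOBE libraries all lay above (right) or below (left) both WT libraries, in percent; dotted lines mark the shares over all tested genes, 11.6% above and 10.5% below. Bars of metabolic and plasma protein lists extend to the left, and those of fetal, cell cycle, chemokine and macrophage lists to the right. The 37 were picked from 82 lists and grouped by direction, so the split between the sides partly follows from that choice. Lists with near-equal shares were left out, such as Kupffer cell markers (10.5% above and 10.5% below) and Wnt targets (10% and 10%).

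Among matrix genes, Spp1 was the 1 of 36 laminins, proteoglycans and matrix proteins that rose; 0 fell, 14 lay above WT and 2 below without overlap, and the median was 0.75. Without replicate 1, 7 of these rose and 5 fell. Of 28 collagens 0 rose or fell, and the median was 0.74. Without overlap, 6 lay above WT (21.4%) and 2 below (7.14%), against 11.6% and 10.5% of all tested genes. At an unadjusted p under 0.05, 5 were higher and 2 lower, and DESeq2 called 2 higher and 2 lower. Without replicate 1 the collagen median was 0.32, with 2 that rose and 3 that fell. Col1a1, the main fibrillar collagen of stellate cells and fibroblasts, was at 7.17 and 2.39 CPM in WT and at 50.3, 21.5, 7.78 and 5.64 CPM in PR-SET7_LOBE, where replicate 4 lay between the WT libraries. Plat, tissue plasminogen activator, was at 0.573 and 0.368 CPM in WT and at 11.5, 3.82, 13.5 and 2.91 CPM in PR-SET7_LOBE (adjusted p = 0.0850). It lay above WT without overlap, with replicate 4 the low one.

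Of 25 genes of the ATF4 amino acid response 0 rose or fell, 11 lay above WT and 4 below without overlap, and the median was 0.88. Before adjustment (p under 0.05), 9 were higher and 3 lower, and DESeq2 called 7 higher; without replicate 1, 5 rose, 3 fell and the median was 0.60. Psat1, of serine synthesis, was at 0.382 and 0.828 CPM in WT and at 3.28, 10.03, 7.14 and 2.91 CPM in PR-SET7_LOBE (adjusted p = 0.105). Atf3, a stress-induced transcription factor, was at 2.10 and 1.84 CPM in WT and at 10.8, 8.02, 11.4 and 3.55 CPM in PR-SET7_LOBE (adjusted p = 0.151). Of 21 genes of the unfolded protein response 0 lay above WT and 8 below, with a median of -0.50. At an unadjusted p under 0.05, 0 were higher and 3 lower, with 0 called in DESeq2 and 0 without replicate 1. Their mean log2 CPM, relative to the WT mean, was -0.036 and 0.036 in WT. In PR-SET7_LOBE it was -0.784, 0.018, -0.787 and -0.207, so replicate 2 lay within the WT range.

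The genes that fell were fewer and of another kind. Cyp46a1, which hydroxylates cholesterol at position 24 in the brain (mm9 chromosome 12, 109572587 to 109600441), was at 261.2 and 374.5 CPM in WT and at 7.03, 1.15, 1.02 and 2.64 CPM in PR-SET7_LOBE. On the log2 scale it fell by 6.74 (SE 0.73, adjusted p = 0.00608), and replicate 1 held the highest of the 4 values. Dpy19l3, a mannosyltransferase of the endoplasmic reticulum (mm9 chromosome 7, 36470184 to 36539473), was at 30.9 and 63.9 CPM in WT and at 4.97, 1.81, 6.67 and 6.91 CPM in PR-SET7_LOBE, and fell by 3.21 (SE 0.50, adjusted p = 0.0331). Ugt1a5, a glucuronosyltransferase, was at 70.3 and 91.0 CPM in WT and at 11.8, 23.5, 15.5 and 19.7 CPM in PR-SET7_LOBE, and fell by 2.19 (SE 0.35, adjusted p = 0.0331). It shares exons with the other Ugt1a genes, so its reads may belong to any of 10 overlapping genes on the same strand.

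H2-Ea-ps encodes the alpha chain of the MHC class II molecule H2-E, which some mouse strains carry intact while C57BL6 carries a deletion of its promoter. It had 37.1 and 11.7 CPM in WT, 0, 0, 0.185 and 0.273 CPM in PR-SET7_LOBE, and 11.5 and 16.8 CPM in DEN_WT. It fell by 7.58 (SE 0.80, adjusted p = 0.00608). Other MHC class II genes did not follow it: H2-Aa was at 115.5 and 21.99 CPM in WT and at 220.9, 248.4, 450.5 and 221.2 CPM in PR-SET7_LOBE (adjusted p = 0.181). Every library carries the same label of a mixed strain, and what each animal inherited at this locus was not tested.

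Of the 17 genes that fell, 9 are annotated as pseudogenes in GENCODE M21 (52.94%), against 0 of the 26 that rose and 1292 of the 17362 tested (7.44%). The share of tested pseudogenes that lay below WT without overlap was 9.8%, near the 10.5% of all genes. A further 4 of the 17 had no entry in that annotation, 3 of them with names of pseudogenes. Of the 9, 6 were copies of the ribosomal protein genes Rps2, Rpl21 and Rpsa, and H2-Ea-ps is also among the 9. Rps2-ps6, which had no entry, was at 23.2 and 42.3 CPM in WT and at 0.656, 1.24, 0 and 0.182 CPM in PR-SET7_LOBE, and fell by 5.96 (SE 0.80, adjusted p = 0.0155). Rpsa-ps2, 98.8% identical to Rpsa, was at 23.02 and 48.3 CPM in WT and at 5.34, 5.35, 1.48 and 2.64 CPM in PR-SET7_LOBE, and fell by 3.27 (SE 0.52, adjusted p = 0.0331). Rpl21-ps10 and Rps2-ps5, also without an entry, fell by 5.45 and 5.36 (SE 0.74 and 0.87).

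The coding genes of these copies did not pass the test. Rps2, which is 97.6% to 98.9% identical to 2 of the unnamed copies that fell, was at 739.9 and 865.9 CPM in WT and at 641.4, 717.9, 543.3 and 1064 CPM in PR-SET7_LOBE, with overlap (log2 fold change -0.11, adjusted p = 0.906). Rpsa was at 686.0 and 828.1 CPM in WT and at 824.7, 1280, 348.8 and 331.8 CPM in PR-SET7_LOBE (log2 fold change -0.12, adjusted p = 0.928). Rpl21, 94.6% to 99.6% identical to 3 unnamed copies that fell, was at 74.9 and 74.5 CPM in WT and at 122.8, 142.7, 106.7 and 63.5 CPM in PR-SET7_LOBE (log2 fold change 0.54, adjusted p = 0.471). In each of these coding genes the groups overlapped. Of 30 cytosolic ribosomal protein genes 0 rose or fell, and 1 lay above and 1 below WT without overlap (1 and 1 at an unadjusted p under 0.05, 0 in DESeq2); without replicate 1, 1 rose. The handling of reads with several hits is not given in the sources used here, so how reads were divided between these genes and their copies was not tested. Rps2, Rpsa and Rpl21 were looked up after the copies had been found.

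Many metabolic genes of hepatocytes lay below WT, although of those on the metabolic lists only Cyp46a1 and Ugt1a5, already described, passed the test as lower. The lists of amino acid breakdown were among those with the lowest medians. Of 29 genes of glycine, serine, methionine and one-carbon metabolism 17 lay below WT and 2 above without overlap (median -1.03), of 20 of phenylalanine, tyrosine and tryptophan breakdown 14 lay below and 0 above (median -0.87), and of 24 of branched-chain amino acid, lysine and proline breakdown 12 lay below and 0 above (median -0.89). On these 3 lists 0 genes rose or fell; without replicate 1, 9, 9 and 7 fell. At an unadjusted p under 0.05, 14, 11 and 10 were lower and 0 higher, and DESeq2 called 4, 5 and 3 lower.

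Agxt, which removes glyoxylate in peroxisomes, was at 463.6 and 513.1 CPM in WT and at 227.4, 80.3, 49.3 and 129.2 CPM in PR-SET7_LOBE (log2 fold change -2.01, SE 0.52, adjusted p = 0.134). Tat, tyrosine aminotransferase, was at 1251 and 1797 CPM in WT and at 826.5, 317.0, 145.1 and 360.3 CPM (log2 fold change -1.89, SE 0.59, adjusted p = 0.176). Mccc2, of leucine breakdown, was at 48.6 and 71.5 CPM in WT and at 21.5, 18.6, 20.0 and 22.9 CPM (log2 fold change -1.53, SE 0.31, adjusted p = 0.0805). In Agxt and Tat replicate 1 was nearest to WT and replicate 3 farthest, while the 4 values of Mccc2 were close together. Of 17 urea cycle and nitrogen disposal genes 10 lay below WT and 0 above (median -0.95; 7 lower at an unadjusted p under 0.05, 4 in DESeq2, 8 fell without replicate 1), among them Slc25a13, the aspartate-glutamate carrier, at 100.4 and 127.3 CPM in WT and at 41.4, 51.6, 33.7 and 45.3 CPM in PR-SET7_LOBE (adjusted p = 0.0990).

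Genes of fatty acid synthesis and of oxidation both lay below WT more often than above. Of 43 genes of fatty acid synthesis and lipid droplets 1, Fabp4, rose, 0 fell, and 15 lay below WT and 3 above without overlap (median -0.68); without replicate 1, 3 rose and 11 fell. Acacb, the acetyl-CoA carboxylase at mitochondria, was at 536.5 and 729.1 CPM in WT and at 183.7, 100.6, 99.8 and 151.9 CPM in PR-SET7_LOBE (log2 fold change -2.24, SE 0.41, adjusted p = 0.0601). Acly, which makes cytosolic acetyl-CoA, was at 559.5 and 1023 CPM in WT and at 194.2, 210.1, 212.5 and 281.1 CPM (log2 fold change -1.82, SE 0.39, adjusted p = 0.0919). Both lay below WT in all 4 libraries, without overlap. Of 42 fatty acid oxidation genes 13 lay below and 2 above (median -0.70), of 28 peroxisomal genes 13 below and 0 above (median -0.77), and of 23 cholesterol synthesis genes 10 below and 0 above (median -0.45). On these 3 lists 0 genes rose or fell; at an unadjusted p under 0.05, 13, 11 and 7 were lower, and DESeq2 called 3, 7 and 1 lower. Without replicate 1, 8, 11 and 4 fell and 2, 0 and 1 rose. The 2 WT libraries differed on the oxidation list. Its mean log2 CPM, relative to the WT mean, was -0.433 and 0.433 in WT. In PR-SET7_LOBE it was -0.476, -0.377, -0.544 and -0.680, so WT replicate 1 lay within the range of PR-SET7_LOBE.

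Of 27 tested genes of glycolysis and its tumour isozymes 0 rose or fell, 3 lay above WT and 10 below without overlap, and the median was -0.63. Before adjustment (p under 0.05), 2 were higher and 5 lower, DESeq2 called 1 higher and 4 lower, and without replicate 1, 0 rose and 6 fell. Pklr, the pyruvate kinase of liver and red cells, was at 324.3 and 393.4 CPM in WT and at 196.3, 89.5, 168.0 and 116.7 CPM (adjusted p = 0.166). Pkm2, the symbol the table uses for the pyruvate kinase gene of muscle, fetal and dividing cells, was at 32.7 and 23.4 CPM in WT and at 78, 66.8, 78.1 and 42.4 CPM (adjusted p = 0.181). Neither passed the test, and in neither did the groups overlap. Of 34 nuclear genes of the respiratory chain 11 lay below WT and 1 above (median -0.63). At an unadjusted p under 0.05, 7 were lower, DESeq2 called 2 lower, and 4 fell without replicate 1. Among the lower genes was Sdhb of complex II, at 115.3 and 261.0 CPM in WT and at 77.3, 49.6, 35.1 and 57.8 CPM (adjusted p = 0.107). The list's mean log2 CPM, relative to the WT mean, was -0.350 and 0.350 in WT. It was -0.677, -0.329, -0.936 and -0.706 in PR-SET7_LOBE, so WT replicate 1 lay within that range.

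Cytochromes P450 split by gene. Of the 37 tested 1, Cyp46a1, fell, 0 rose, and 15 lay below WT and 3 above without overlap (median -0.87); without replicate 1, 3 rose and 10 fell. Cyp2b10, a target of the receptor CAR, was at 30.7 and 60.7 CPM in WT and at 5.34, 3.15, 4.17 and 13.2 CPM in PR-SET7_LOBE (adjusted p = 0.0990). Nr1i3, which encodes CAR, was at 171.3 and 214.2 CPM in WT and at 66.3, 95.9, 89.2 and 77.7 CPM (adjusted p = 0.142). Cyp2a5, a coumarin hydroxylase, lay the other way, at 247.0 and 337.2 CPM in WT and at 1633, 5911, 4347 and 1819 CPM in PR-SET7_LOBE (log2 fold change 3.55, SE 0.76, adjusted p = 0.0919). Its paralog Cyp2a4 is close in sequence, so reads could be split between them. Slc10a1, the bile acid importer of hepatocytes, was at 331.5 and 426.1 CPM in WT and at 104.6, 120.4, 53.7 and 137.5 CPM (log2 fold change -1.86, SE 0.41, adjusted p = 0.0938), opposite to the exporter Abcc4.

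Plasma proteins and their regulators completed the lower groups. Of 32 plasma protein genes 13 lay below WT and 0 above without overlap (median -0.94), and their summed level was 312951 and 346994 CPM in WT and between 90367 and 229296 CPM in PR-SET7_LOBE. Serpina1e, an alpha-1-antitrypsin gene, was at 35180 and 39790 CPM in WT and at 17140, 10520, 5203 and 9579 CPM (adjusted p = 0.178). Of 30 hepatocyte transcription factors and receptors 11 lay below and 1 above (median -0.62). The mean log2 CPM of these 30, relative to the WT mean, was 0.246 and -0.246 in WT. In PR-SET7_LOBE it was -0.205, -0.840, -0.766 and -0.647, so replicate 1 lay within the WT range. Foxa2, a pioneer factor of hepatocyte genes, was at 45.6 and 52.2 CPM in WT and at 38.2, 18.1, 13.9 and 11.6 CPM (adjusted p = 0.219). Igf1, the growth factor that hepatocytes release under growth hormone, was at 474.2 and 397.9 CPM in WT and at 204.1, 76.8, 121.1 and 201.4 CPM (adjusted p = 0.158). No member of the plasma protein or the transcription factor list passed the test with all libraries; without replicate 1, 13 of the first and 10 of the second fell, and 0 and 1 rose. Before adjustment (p under 0.05), 12 and 7 were lower and 0 and 1 higher, and DESeq2 called 6 and 1 lower and 0 and 1 higher.

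**Figure D3:**
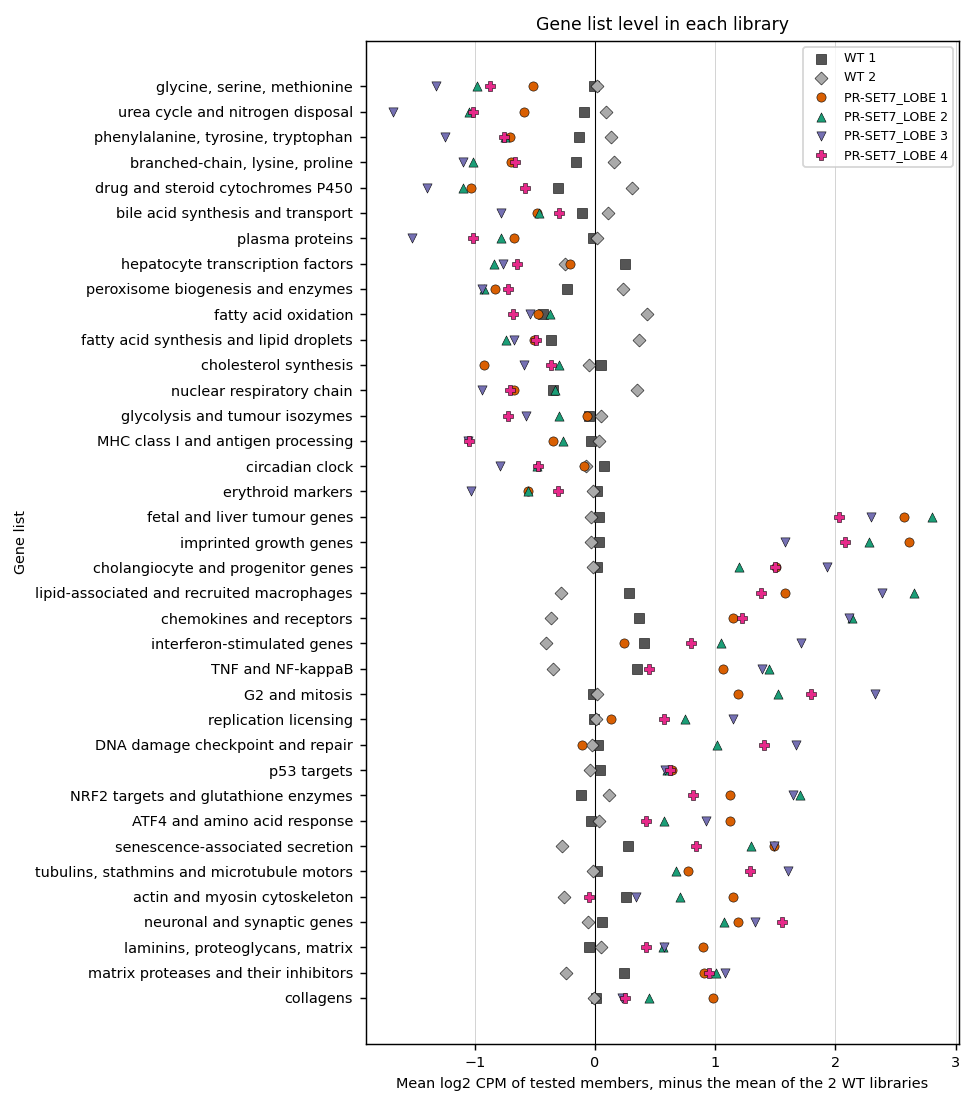
Level of the same 37 gene lists in each of the 6 libraries, as the mean log2 CPM of the tested members minus the mean of the 2 WT libraries, with 1 symbol per library. Replicate 1 lies nearest to WT for hepatocyte transcription factors and DNA damage genes but not for imprinted or fetal genes, and the 4 libraries lie close together for p53 targets.

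The 4 PR-SET7_LOBE libraries also differed among themselves. Of the 2012 genes that lay above WT without overlap, replicate 1 was nearest to WT in 822 (40.9%) and replicate 3 in 215 (10.7%). Of the 1828 that lay below, replicate 1 was nearest in 915 (50.1%) and replicate 3 in 185 (10.1%). Among the 26 genes that rose, replicate 4 was most often nearest to WT, in 13, against 5 for replicate 1. The 8 named genes with the widest range among the 4 libraries on the log2 (CPM + 1) scale were picked after their values were seen and are described without a test. H19, an imprinted fetal RNA, was at 0.382 and 0.368 CPM in WT and at 6946, 9370, 9.64 and 108.4 CPM in PR-SET7_LOBE. Its imprinted neighbour Igf2 was at 1.15 and 1.47 CPM in WT and at 2414, 2027, 1.76 and 5.64 CPM. Replicates 1 and 2 were thus far above replicates 3 and 4 for both.

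Other genes singled out other libraries. Sult2a1, a hydroxysteroid sulfotransferase more abundant in female liver, had 0 counts in WT and was at 3.94, 209.0, 0.834 and 5.82 CPM, high in replicate 2. Sult1e1, the estrogen sulfotransferase, was at 0 and 0.276 CPM in WT and at 1.03, 38.7, 15.8 and 4.27 CPM. Rsad2, which is interferon-induced, was highest in replicate 3, at 11.3, 5.06, 143.9 and 15.6 CPM against 3.06 and 1.75 CPM in WT. Ifit2, of the same response, was highest there too, at 3.09, 21.1, 81.1 and 9.37 CPM against 3.06 and 1.47 CPM. Npas2, a circadian transcription factor, was highest in replicate 4, at 2.72, 1.15, 9.45 and 46.8 CPM against 0.573 and 0.276 CPM in WT. Hspa1b, a heat shock chaperone, was at 108.5 and 185.7 CPM in WT and at 102.9, 39.6, 2.69 and 6.28 CPM, low in replicates 3 and 4. Collection times are not given in the labels, and their part in Npas2 was not tested.

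**Figure D4:**
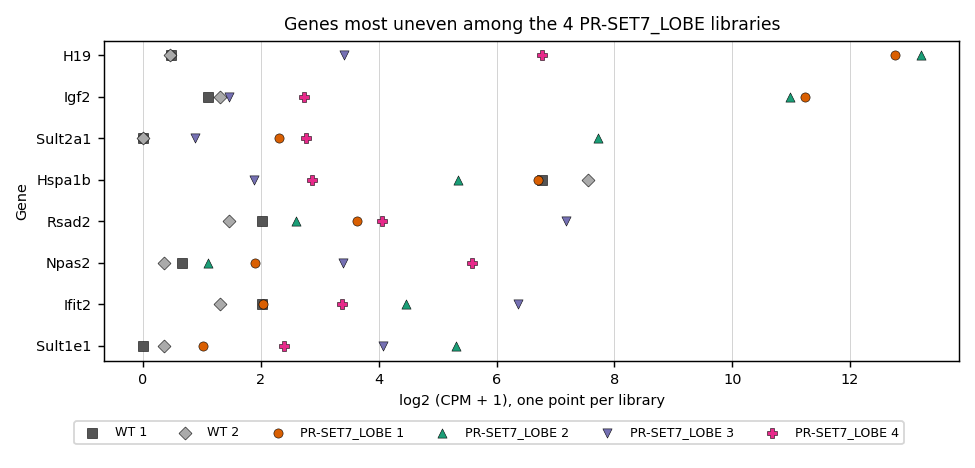
The 8 named genes with the widest range among the 4 PR-SET7_LOBE libraries, as log2 (CPM + 1) on the horizontal axis, with 1 symbol per library for the 2 WT and 4 PR-SET7_LOBE libraries. H19 and Igf2 are high in replicates 1 and 2, Sult2a1 in replicate 2, Rsad2 in replicate 3 and Npas2 in replicate 4.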

How the data were processed

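Liver RNA was sequenced from poly(A)-selected, RNase III-fragmented libraries on the Ion Proton, per the labels' protocols. The deposited values are raw counts per Ensembl gene. The submitters' processing notes name mm9, TopHat2 2.0.9, Cufflinks and DESeq, without their order. Which tool counted, whether by strand, and how multiply mapped reads were treated is not given in the sources used here.

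All 8 libraries were fitted together by group with edgeR 4.0.16 in R 4.3.3 (filterByExpr, TMM scaling, robust quasi-likelihood test, Benjamini-Hochberg adjustment over 17362 of 37583 genes). The 17 alternatives included DESeq2 1.42.0 and limma 3.58.1. CPM values use TMM-scaled library sizes. Totals of 7305595 to 16108081 counts set the precision, and counting intervals and floors of 3 counts cover counting error only.

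The comparison, the gene lists and their members were chosen with earlier results of these data known. Named genes were Setd8, changed genes with a proper symbol, up to 5 members of each of 82 lists with the smallest p, provided their mean log2 CPM reached 1, and defining cell type markers. Similar transcripts were found with blastn 2.17.0 (at least 90% identity over 50% of the length, GENCODE M21). The fit was tested on simulated data. Lists are described by counts and medians, beside the median of all tested genes. Some results are not reported here.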

Additional observations from a re-analysis of the deposited data

Results flagged for a closer look

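Among the 4 PR-SET7_LOBE libraries, the 31 changed genes with a gene symbol and the mean log2 CPM of 82 gene lists were searched for a single library far from the other 3, by the gap to its nearest neighbour as a share of the whole range. A share above Dixon's 95% critical value was singled out, which chance gives in about 1 in 20 groups, and 7 were found. Cbr3 was low in replicate 4 (gap of 0.856 of the range). The list of phenylalanine, tyrosine and tryptophan breakdown was low in replicate 3 (0.911), and the adipocyte and muscle markers were low in replicate 2 (0.84). Replicate 1 was low for the coagulation list (0.889) and high for the lists of TGF-beta (0.903), Hippo (0.899) and Notch signalling (0.925).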

How the results depend on the processing

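The 43 calls (26 higher, 17 lower) kept their direction in each of the 17 alternatives in which they were tested, while the number of calls moved widely. It was 66 with upper-quartile scaling (47 higher), 419 with no count filter (269 higher, 150 lower), 927 with DESeq2 (663 and 264), 386 with limma voom and quality weights (133 and 253), 19 in a fit on the 2 groups only (8 and 11), and 115 with GC content correction (71 and 44). Leaving out 1 library gave between 1 and 2392 calls, with 0 to 1270 higher and 1 to 1122 lower. The lowest and the highest came without WT replicate 2 and without PR-SET7_LOBE replicate 1. The other omissions that moved the count by over 1.5 times were WT replicate 1 (8 calls) and PR-SET7_LOBE replicates 2, 3 and 4 (15, 28 and 99). A replicate block gave 255 calls (201 and 54), including all 43, but only 2 numbers are shared between the groups and nothing in the labels pairs them. The deviations of same-numbered libraries correlated at 0.165 and 0.106, and WT replicate 2 correlated at 0.16 with PR-SET7_LOBE replicate 4.

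Of the genes given here with a fold change or level, Setd8, 3 markers and the coding genes Rps2 and Rpsa, none of them called, changed sign, and the cause was not tested. The log2 fold change of Setd8 was 0.16 with upper-quartile scaling, 0.15 with the strict count filter, 0.16 with the replicate block and between -0.09 and 0.12 with 1 library left out. Krt19 was at 0.08 with upper-quartile scaling, 0.06 with the block and between -0.71 and 0.28 with 1 library left out. With 1 library left out, Clec4f ranged from -1.43 to 0.24 and Alb from -0.08 to 1.25. Rpsa was at 0.02 with upper-quartile scaling, 0.01 with the strict filter, 0.46 with the block and between -0.53 and 0.16 with 1 library left out, and Rps2 at 0.09 and 0.06 with those 2 settings, 0.06 with GC correction and between -0.33 and 0.08. The 2 WT libraries and the smallest total of 7305595 counts limit the precision.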
